A study of Sus scrofa with 63 samples.

Results

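The matrix genes described here are the collagens, the laminins, nidogen 1 (NID1), fibronectin (FN1), elastin (ELN), the fibrillins, the small proteoglycans decorin, lumican and biglycan (DCN, LUM, BGN) and the lysyl oxidases. They were chosen by the gene symbols printed on the array, which gave 137 of its 60305 probes, and 57 of the 45222 different names that it gives to probes (gene symbols or sequence identifiers). Of these, 114 probes of 44 genes were bright enough to be tested. RNA was taken from the jejunum of 63 male pig fetuses at day 90 or day 110 of gestation and hybridised to one-colour Agilent arrays. The fetuses were purebred Large White (LW), purebred Meishan (MS) or from both reciprocal crosses. An LWMS fetus had an LW sire and an MS sow, and an MSLW fetus an MS sire and an LW sow. The LW group had 9 fetuses at each age and the LWMS group likewise 9. MS had 6 at day 90 and 7 at day 110, and MSLW had 8 and then 6. Each litter could hold purebred and crossbred fetuses together, because semen of both breeds was pooled for insemination. No group had been treated. Which sow carried which fetus is not analysed here. Litter mates are treated as unrelated, and the p-values may be too small for that reason. The design asks how the matrix genes differ between the ages, between the breeds, and by the breed of the sow and of the sire.

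Collagens are triple helices of chains in which glycine recurs at a fixed spacing. Fibrillar collagens (types I, III and V among them) form the fibrils that carry tension in the wall of the gut, and fibril-associated collagens (types XII, XIV, XVI and XXI) decorate them. Type IV collagen, laminins and nidogen build the basement membrane on which epithelium, muscle and vessels rest. Decorin, lumican and biglycan bind fibrils and regulate their width, lysyl oxidases cross-link them, and fibrillins with elastin form elastic fibres. In the intestine, most of these proteins are made by fibroblasts and smooth muscle, and the laminins are made by epithelium and mesenchyme together.

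The repeat of glycine can be read in the probes themselves, each of which is a 60-base DNA sequence. Glycine is encoded by GGN, so a collagen helix appears as GGN codons whose starts lie 9 bases apart. A run of 4 such codons, GGNNNNNNNGGNNNNNNNGGNNNNNNNGGN, was searched on both strands. The strand printed on the array held it in 52 of all 60305 probes (0.0862%) and in 10 of the 88 collagen probes (11.4%), and the reverse strand held it in 32 probes (0.0531%) and in 2 collagen probes (2.27%). The following 5 probes are shown because they hold the helix repeat of collagens of 5 kinds, with the GGN codons of the run in capitals. They are given 5′ to 3′ as the array has them.
COL1A2, fibrillar: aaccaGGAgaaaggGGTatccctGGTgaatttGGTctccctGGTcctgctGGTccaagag
COL21A1, fibril-associated: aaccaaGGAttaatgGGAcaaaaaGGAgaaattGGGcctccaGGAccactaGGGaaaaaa
COL17A1, transmembrane: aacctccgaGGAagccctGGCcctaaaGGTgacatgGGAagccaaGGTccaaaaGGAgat
COL8A1, network-forming: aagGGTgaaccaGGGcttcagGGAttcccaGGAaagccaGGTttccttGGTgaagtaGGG
COL7A1, anchoring fibril: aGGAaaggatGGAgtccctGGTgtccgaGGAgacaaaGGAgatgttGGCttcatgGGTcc
The COL17A1 probe rose by 0.79 on the log2 scale between the ages (adjusted p = 0.000863). The COL1A2 and COL21A1 probes gave differences of -0.51 and -0.66 that missed the threshold (adjusted p = 0.0101 and 0.0132), while other probes of both genes fell. The COL8A1 and COL7A1 probes gave -0.05 and 0.03.

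A level is the log2 of the background-corrected brightness of a probe minus the 75th percentile of its array, so that 0 is as bright as that percentile and a difference of 1 is 2-fold. Levels are set against each other between fetuses, not between genes. Each gene is represented by its brightest tested probe, and different probes of a gene share its transcript and are not replicates. Differences between ages and between MS and LW were called where limma's p, adjusted over all 40515 probes tested, was 0.01 or less and the log2 difference 0.5 or more in size. Differences by sow or sire breed were called where the adjusted p was under 0.05. Of the member probes tested, 83 were well above background on every array and 101 passed the filter in all 8 groups, while 1 passed it through 1 group only. The 13 genes with no tested probe were COL4A3, COL4A4, COL9A1, COL9A2, COL10A1, COL11A1, COL13A1, COL19A1, COL22A1, COL28A1, LAMA1, LAMB3 and LOXL4, whose probes were well above background on at most 19 of 63 arrays. The share of all probes well above background had a median of 67.6% at day 90 (range 56.3 to 87.6%) and of 66.3% at day 110 (51.2 to 80.4%). The arrays of 4 fetuses, 484 (LW, day 90), 532 (MS, day 90), 469 (LW, day 110) and 851 (MSLW, day 110), stood apart, with a median correlation with the other arrays of 0.891 to 0.912 against 0.938 or more for the remaining ones. Calls that were lost without them are given with their values.

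Between day 90 and day 110, averaged over the 4 genotypes, 3 of 4 tested fibril-associated collagens fell, as did 2 of 9 fibrillar and 2 of 7 network-forming and beaded collagens. COL17A1 and COL5A3 rose, and the type IV collagens, laminins and nidogen gave no call. The representative probe fell in 8 of the 44 genes, namely COL8A2, COL1A1, COL14A1, COL1A2, COL21A1, COL18A1, COL16A1 and COL29A1, and rose in 2. Over probes, 28 of 114 fell (24.6%) and 4 rose, including a dim COL17A1 probe that passed the filter only through day 110 groups where it was brightest. Of the 28 that fell, 11 were of COL14A1 and 5 of DCN, so the share over probes counts some transcripts many times. Over all probes tested 7.62% fell and 6.12% rose, and 13.7% changed in either direction. The median difference was -0.18 over the 44 genes and -0.02 over all probes, whose quartiles were -0.23 and 0.17. It was negative in 30 of the 44 genes and in 52.9% of all probes. Bulk tissue was measured, so fewer cells of a type and less RNA per cell cannot be told apart.

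**Figure D1:**
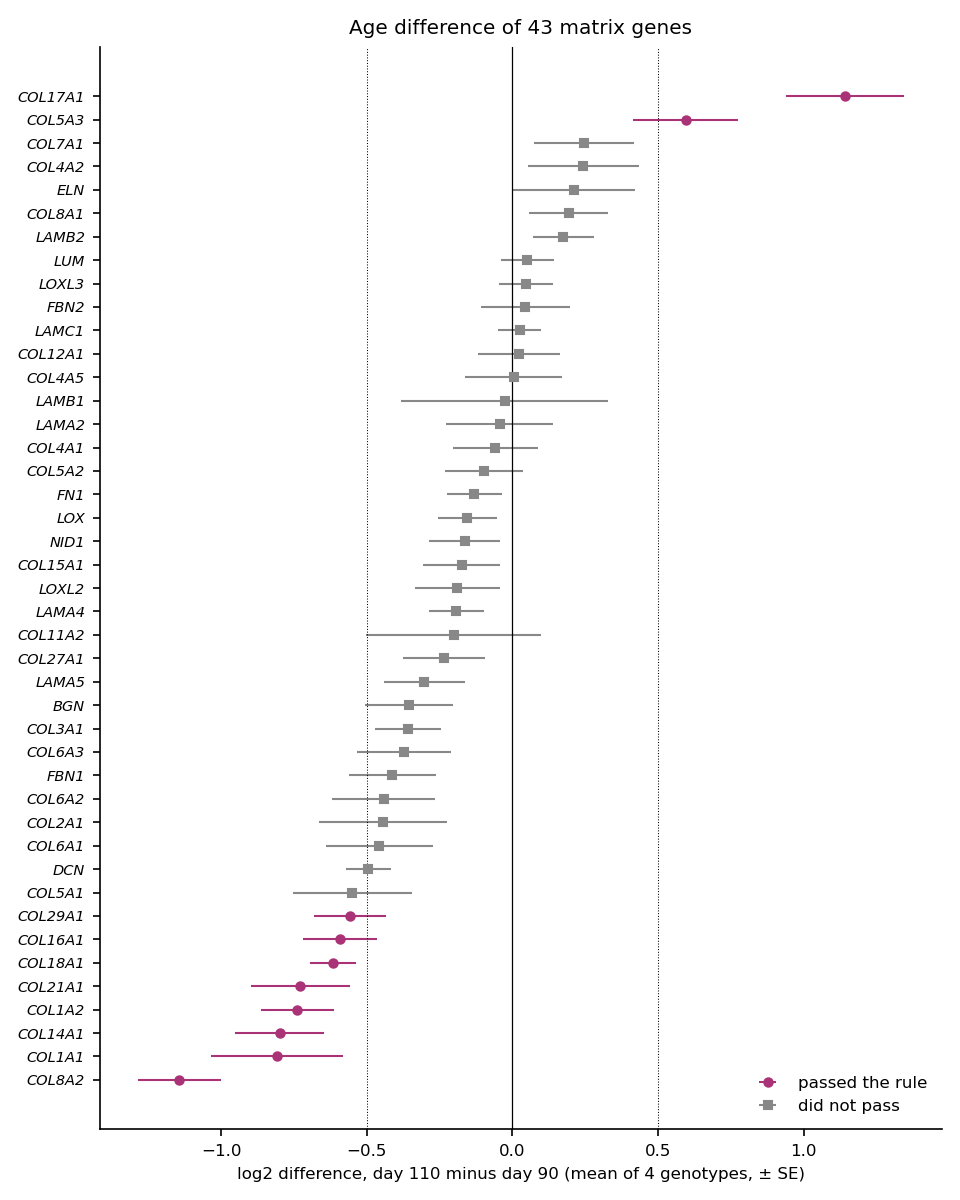
Difference between day 110 and day 90 (log2, horizontal axis) for the representative probe of each of 43 tested matrix genes, averaged over the 4 genotypes, with its standard error. Filled points passed the test and dotted lines stand at -0.5 and 0.5. COL8A2 at -1.14 and COL17A1 at 1.14 are the outermost genes, and 30 of 43 lie below 0.

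Among the fibrillar collagens, 2 of 9 tested genes fell and 1 rose, with a median of -0.36. COL1A1 and COL1A2 encode both chains of type I collagen, the main fibril of the gut wall. COL1A1 had levels from 2.05 to 5.61 at day 90 (median 4.80, 32 fetuses) and from 2.15 to 5.24 at day 110 (median 3.80, 31 fetuses). It fell by 0.81 ± 0.226 (SE; adjusted p = 0.00321), with a wide overlap of the ages. LW fetuses ran from 2.05 to 5.45 (median 4.73) at day 90 and from 2.57 to 5.15 (median 4.38) at day 110. MSLW fetuses ran from 3.39 to 5.59 (median 5.22) and then from 2.55 to 4.18 (median 3.71). The difference was -0.47 in LW, -0.56 in MS, -0.88 in LWMS and -1.32 in MSLW, none of which passed on its own. The second probe of COL1A1 fell too, by 0.82.

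The levels of COL1A2 lay between 4.07 and 5.70 at day 90 (median 5.03) and between 2.99 and 5.83 at day 110 (median 4.27), and it fell by 0.74 ± 0.125 (adjusted p = 2.69e-06). It fell in LWMS by 0.88 (adjusted p = 0.00417) and in MSLW by 0.998 (adjusted p = 0.00758), while LW and MS gave -0.48 and -0.60. In LWMS fetuses the level went from 4.46 to 5.58 (median 4.999) at day 90 to between 2.99 and 4.74 (median 4.03) at day 110. Of its 4 probes 3 fell. The LWMS call was lost without fetus 411 or 504, and the MSLW call in 10 of 63 leave-one-out fits, each leaving out an MSLW fetus. The LWMS call was also lost after quantile normalization (-0.97, adjusted p = 0.0132) and median centring (-0.74, adjusted p = 0.0503). The MSLW call was lost under 5 of 10 settings, with differences from -1.11 to -0.98. The adjusted p ran from 0.0125 without the 4 arrays that stood apart (-0.98) to 0.0202 after median centring (-1.07), the others being the authors' processed values, quantile normalization and no filter.

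COL3A1, the type III chain that forms thin fibrils with type I, gave -0.36 ± 0.113 with an adjusted p of 0.00872, which is under 0.01, but the difference was smaller than the 0.5 required. Its median went from 5.67 to 5.44 in LW, from 5.57 to 4.96 in MS, from 5.58 to 5.18 in LWMS and from 5.92 to 5.17 in MSLW. The type V chains, which start fibrils, did not move together. COL5A3 rose by 0.59 ± 0.181 (adjusted p = 0.00673), COL5A1 gave -0.55 ± 0.203 (adjusted p = 0.0261) and COL5A2 gave -0.10 (adjusted p = 0.606). COL5A3 ran from -1.32 to 1.54 in LW at day 90 (median 0.84) and from 0.36 to 2.02 at day 110 (median 1.57), so that the ages overlapped. The call was lost with no filter (0.59, adjusted p = 0.0106), with the slide as a block (0.56, adjusted p = 0.0119), with array weights (0.35, adjusted p = 0.043) and without the 4 arrays that stood apart (0.52, adjusted p = 0.0149). It was also lost without any 1 of fetuses 524, 532 and 827 (MS, day 90), 623, 627 and 632 (MS, day 110), 498 (MSLW, day 90) and 560 (MSLW, day 110). COL2A1 (-0.45), COL11A2 (-0.20) and COL27A1 (-0.24) gave no call.

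The fibril-associated collagens held most of the probes that fell. Of 18 tested probes 15 fell, and of 4 genes COL14A1, COL21A1 and COL16A1 fell while COL12A1 gave 0.02 (adjusted p = 0.921). COL14A1, which binds fibrils in dense connective tissue, has 12 probes, and 11 of them fell, with differences from -1.07 to -0.47 over all 12. Its brightest probe ran from 1.14 to 3.21 at day 90 (median 2.51) and from 0.40 to 3.32 at day 110 (median 1.503), and fell by 0.80 ± 0.153 (adjusted p = 2.35e-05). The differences by genotype were -0.86 in LW, -0.43 in MS, -0.75 in LWMS and -1.15 in MSLW. MS fetuses at day 110 were widely spread, from 0.88 to 3.32 with a median of 1.35. COL21A1 fell by 0.73 ± 0.17 (adjusted p = 0.000421) and 2 of its 3 tested probes passed. COL16A1 fell by 0.59 ± 0.128 (adjusted p = 0.000148) on both of its probes.

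**Figure D2:**
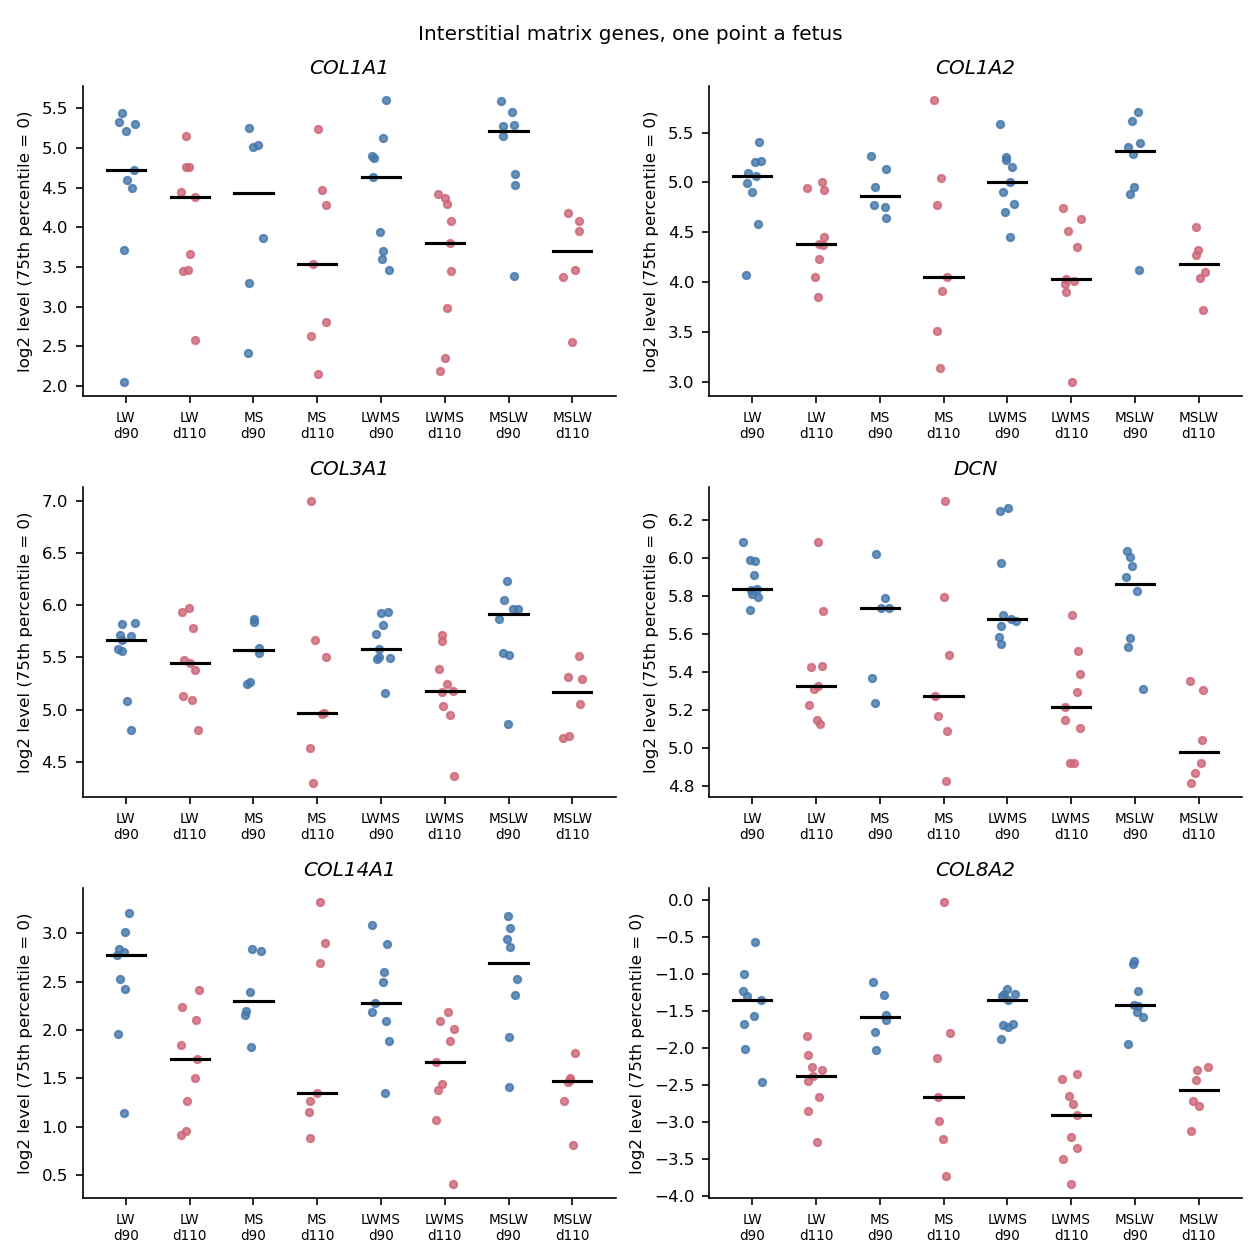
Level of COL1A1, COL1A2, COL3A1, DCN, COL14A1 and COL8A2 in each fetus (log2, 0 at its array's 75th percentile, vertical axis) by genotype, with day 90 in blue, day 110 in red and a bar at each group's median. The ages of COL8A2 do not overlap in LWMS and MSLW, and those of COL1A1 overlap in every genotype.

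Network-forming and beaded collagens gave 2 falls among 7 tested genes, with a median of -0.44. COL8A2, a short-chain collagen of hexagonal networks around vessels and in other basement membranes, was the gene with the largest fall. LW fetuses lay between -2.46 and -0.57 at day 90 (median -1.36) and between -3.28 and -1.83 at day 110 (median -2.38). LWMS fetuses lay between -1.87 and -1.21 (median -1.35) and then between -3.85 and -2.35 (median -2.91). The ages did not overlap in LWMS and in MSLW, where day 90 ran from -1.95 to -0.82 and day 110 from -3.12 to -2.26. It fell by 1.14 ± 0.142 (adjusted p = 1.84e-09). By genotype it fell by 0.997 in LW (adjusted p = 0.00724), 1.51 in LWMS (adjusted p = 1.64e-05) and 1.25 in MSLW (adjusted p = 0.00291). In MS, where 1 fetus at day 110 stood at -0.03 against a median of -2.67, the difference was -0.81 (adjusted p = 0.102). The LW call was lost in 11 of 63 leave-one-out fits, each leaving out an LW fetus, and the MSLW call without fetus 688. The LW call was also lost under 4 of 9 settings, namely quantile normalization, median centring, no filter and the slide as a block, with differences from -1.02 to -0.94 and adjusted p from 0.0122 to 0.0228. Its partner chain COL8A1 gave 0.19 ± 0.135 (adjusted p = 0.267). The other fall was COL29A1, the array's name for a collagen related to type VI, at -0.56 ± 0.124 (adjusted p = 0.000227).

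The 3 main chains of type VI collagen, which forms beaded filaments around cells, gave similar differences that did not pass. COL6A1 gave -0.46 (adjusted p = 0.0421), COL6A2 -0.44 (adjusted p = 0.0409) and COL6A3 -0.37 (adjusted p = 0.0602). The median of COL6A1 went from -1.27 to -1.13 in LW, from -1.56 to -2.22 in MS, from -1.37 to -2.15 in LWMS and from -1.26 to -1.94 in MSLW. COL7A1, which forms the anchoring fibrils of epithelia, gave 0.25 (adjusted p = 0.266).

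COL17A1 rose and COL18A1 fell, each by sizes that varied between the genotypes, although no interaction passed. COL17A1 is a transmembrane collagen of hemidesmosomes, which fasten epithelial cells to the basement membrane. In LW fetuses its level ran from -2.27 to -0.57 at day 90 (median -1.51) and from -3.99 to -0.15 at day 110 (median -1.51). MS fetuses ran from -2.10 to -1.29 (median -1.42) and then from -1.44 to 1.37 (median 0.25). LWMS fetuses ran from -2.46 to -1.26 (median -2.11) and then from -1.68 to 1.01 (median 0.09). The median thus stayed at -1.51 in LW and was higher at day 110 in the other genotypes, although the ages still overlapped in each of them. Averaged over the genotypes it rose by 1.14 ± 0.203 (adjusted p = 6.56e-06), and the helix probe by 0.79. The remaining probe is dim, being well above background on 30 of 63 arrays, and it passed the filter only through MS and LWMS at day 110, where it was brightest. Its rise of 0.81 is therefore no support for that of the others. The difference was -0.19 in LW (adjusted p = 0.829), 1.64 in MS (adjusted p = 0.0125), 1.79 in LWMS (adjusted p = 0.000307) and 1.32 in MSLW (adjusted p = 0.032), and only that of LWMS passed. The change with age was larger in MS than in LW by 1.84 ± 0.578, which did not pass (adjusted p = 0.317).

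At day 110 COL17A1 was higher in MS than in LW by 1.84 ± 0.4 (adjusted p = 0.000924), and at day 90 the difference was 0.01. The helix probe gave 1.04 ± 0.384 at day 110, which did not pass (adjusted p = 0.0748). The dim probe gave 1.90 ± 0.45 (adjusted p = 0.00256), with the same limit as for age. Sow and sire breed gave 0.51 (adjusted p = 0.0781) and 0.42 (adjusted p = 0.245).

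COL18A1 encodes a basement membrane collagen whose end fragment is endostatin. LW fetuses ran from 4.28 to 5.14 at day 90 (median 4.95) and from 4.06 to 5.23 at day 110 (median 4.64). MS fetuses ran from 5.69 to 6.21 (median 5.99) and then from 4.37 to 5.40 (median 5.03). LWMS fetuses ran from 5.27 to 6.08 (median 5.69) and then from 4.35 to 5.22 (median 4.95). At day 90 every MS fetus was above every LW fetus, which held for no other of the 44 genes, and 2.32% of all probes had no overlap between the breeds. At day 110 they overlapped for all 44 genes, and 1.65% of all probes did not. The ages of COL18A1 did not overlap in MS and in LWMS. MSLW fetuses ran from 4.78 to 5.99 (median 5.71) and then from 4.85 to 5.57 (median 5.07). The gene fell by 0.62 ± 0.0781 on average (adjusted p = 3.08e-09), by 0.97 in MS (adjusted p = 7.12e-05) and by 0.79 in LWMS (adjusted p = 3.92e-05). LW gave -0.20 (adjusted p = 0.448) and MSLW -0.51 (adjusted p = 0.0324). After median centring the calls in MS and LWMS were lost (-0.84 and -0.65, adjusted p = 0.0353 and 0.0303).

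Between breeds, COL18A1 was higher in MS than in LW at day 90 by 1.08 ± 0.161 (adjusted p = 1.64e-06), and at day 110 the difference was 0.31 ± 0.154 (adjusted p = 0.214). It was higher with MS sows by 0.30 ± 0.0781 (adjusted p = 0.00515) and with MS sires by 0.40 ± 0.0781 (adjusted p = 0.000307). MS minus LW in the age difference came to -0.78 ± 0.223, which did not pass (adjusted p = 0.246). The sow call was lost with the authors' processed values (0.17, adjusted p = 0.213) and after quantile normalization (0.16, adjusted p = 0.25), and the sire call after median centring (0.33, adjusted p = 0.0868). COL18A1 has a single probe on the array. COL15A1, the other collagen of its kind, gave -0.17 with age (adjusted p = 0.305).

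**Figure D3:**
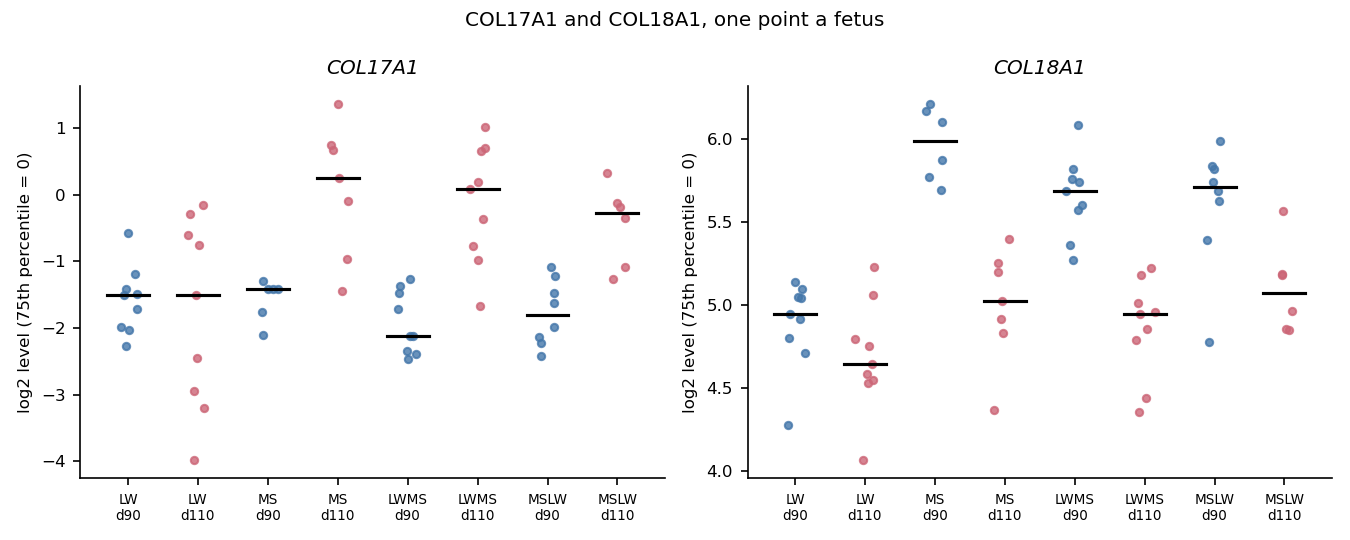
Level of COL17A1 and COL18A1 in each fetus (log2, 0 at its array's 75th percentile, vertical axis) by genotype, with day 90 in blue, day 110 in red and a bar at each group's median. COL17A1 has the same median, -1.51, at both ages in LW, and COL18A1 has no overlap between MS and LW at day 90.

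The type IV collagens, the laminins and nidogen gave no call for the age average. COL4A1 and COL4A2 encode the chains of the common type IV network. COL4A1 gave -0.06 (adjusted p = 0.786), with medians of 1.83 and 1.87 in LW, 1.45 and 1.66 in MS, 1.75 and 1.68 in LWMS, and 2.22 and 1.86 in MSLW. COL4A2 gave 0.24 (adjusted p = 0.329) and COL4A5 0.00 (adjusted p = 0.99). Over all fetuses the 7 tested laminin chains lay between -0.30 and 0.17, with a median of -0.03. LAMA4, of vessel and muscle basement membranes, gave -0.19 (adjusted p = 0.101), LAMA5, the main alpha chain under epithelia, -0.30 (adjusted p = 0.0798), LAMB2 0.17 (adjusted p = 0.188) and LAMC1, the common gamma chain, 0.02 (adjusted p = 0.831). A second probe of LAMA4 fell in LWMS by 0.79. LAMA2, of muscle laminin, gave -0.04 and LAMB1 -0.03. The standard error of LAMB1 was 0.355, and 1 MS fetus at day 90 (827) stood at 6.92 and 1 MSLW fetus at day 110 (688) at -6.40. Without the first LAMB1 gave 0.39 (adjusted p = 0.0825), without the second 0.15 (adjusted p = 0.774), and without both, a setting chosen after seeing the data, it rose by 0.57 ± 0.131 (adjusted p = 0.000432). Over the day 90 groups LAMC1 ran from 0.54 to 1.23 and LAMB2 from 0.32 to 1.59. NID1, which links laminin to type IV collagen, gave -0.16 (adjusted p = 0.303).

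FN1, the adhesive glycoprotein of interstitial matrix, gave -0.13 (adjusted p = 0.283) and its 4 probes lay between -0.34 and -0.11. Its median was 3.80 and then 3.83 in LW, 3.62 and 3.76 in MS, 3.80 and 3.57 in LWMS, and 4.03 and 3.54 in MSLW. ELN, the core of elastic fibres, gave 0.21 (adjusted p = 0.45). FBN1 and FBN2, the fibrillin microfibrils around that core, gave -0.41 (adjusted p = 0.0222) and 0.04 (adjusted p = 0.851). The lysyl oxidases lay between -0.19 and 0.05, with LOX at -0.16 (adjusted p = 0.231). None of these genes passed in any genotype.

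The small proteoglycans differed from each other. DCN, which coats type I fibrils, had levels from 5.73 to 6.08 in LW at day 90 and from 5.12 to 6.08 at day 110, with medians of 5.83 and 5.32. In MSLW it went from 5.31 to 6.03 (median 5.86) to between 4.81 and 5.35 (median 4.98). Its brightest probe gave -0.49 ± 0.0757 (adjusted p = 3.2e-07), just short of the 0.5 required, and the other 5 tested probes passed, so that all 6 lay between -0.73 and -0.49. That probe passed in LWMS (-0.57, adjusted p = 0.0022) and in MSLW (-0.72, adjusted p = 0.00132), and both calls were lost after median centring (-0.43 and -0.79, adjusted p = 0.123 and 0.0156). BGN gave -0.36 (adjusted p = 0.0545). LUM gave 0.05 (adjusted p = 0.699) and none of its 11 probes passed, with differences between -0.16 and 0.09.

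Within genotypes, DCN gave many of the calls for age. In LW, 5 of 114 probes passed (COL8A2 and 4 of DCN, all lower), where 4.77% of all probes passed (2.54% lower and 2.23% higher). In MS, COL18A1 alone passed, being lower, where 3.17% of all probes did (1.48% lower and 1.69% higher). In LWMS 12 of 114 fell and 2 rose (12.3% in all), the 2 being COL17A1 probes of which 1 is the dim one, where 9.88% of all probes passed (5.68% lower and 4.2% higher). In MSLW 13 fell (11.4%), where 5.41% of all probes passed (2.94% lower and 2.47% higher). Of these 13, 6 were of DCN, 4 of COL14A1, 2 of COL1A2 and 1 of COL8A2, so probes of the same transcript were counted repeatedly. By representative probe, 1, 1, 5 and 3 of the 44 genes passed in LW, MS, LWMS and MSLW. The counts of probes were not stable. With array weights, which lower the weight of arrays that deviate, 15, 34, 28 and 29 member probes passed in LW, MS, LWMS and MSLW. Of all 40515 probes, 3293, 4690, 5999 and 3609 did. After median centring 1, 0, 6 and 7 member probes passed. The shares of all probes after median centring are not given here, so this drop is not read as one of the matrix genes. On leaving out 1 fetus, the count in LW rose to 8 without fetus 484, that in MS to 2 without any 1 of fetuses 623, 627, 632, 469, 575 and 609, and that in MSLW was 6, 7 and 8 without fetuses 688, 476 and 455 and at most 17 (without fetus 498 or 632). For these fits too the shares of all probes are not given. The median over the 44 genes was -0.09 in LW, -0.10 in MS, -0.25 in LWMS and -0.39 in MSLW. The interaction of age with the breed of the sow, with the breed of the sire or with the breed in purebreds passed for 0 of 114 probes in each case, and the unadjusted p was under 0.05 for 7, 0 and 8 of them. Across the array 0.388%, 0% and 0.0395% of probes passed. With array weights 2, 0 and 2 member probes passed, and 759, 1 and 708 of all 40515 probes. Of the 44 genes, COL18A1 did not overlap between the ages in MS, COL18A1 and COL8A2 in LWMS, COL8A2 in MSLW and none in LW, where 2.19%, 3.04%, 4.34% and 1.23% of all probes did not overlap. The F test across the 8 groups passed for 30 of 114 probes, against 28.8% of all probes. With array weights its member count was over 1.5 times as large, as given in the last section. By the lowest BIC, 24 of the 30 followed age alone, 2 followed age and genotype additively (DCN) and 2 followed genotype alone (LUM). The remaining 2 needed the interaction (the brightest COL17A1 probe and COL18A1). The 24 were probes of 8 genes, and many were of COL14A1. These models were fitted to member probes only, so the counts are not set against the array. The other COL17A1 probes followed age alone. The dim one passed the filter only through groups where it was brightest, so its place in these counts supports nothing.

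Arrays were hybridised on 8 slides that each held both ages. Within slides, with the genotypes of an age averaged as they fell on the slide, COL8A2, COL14A1, COL16A1, COL18A1, COL1A2, COL21A1 and DCN were lower at day 110 on all 8, and COL17A1 was higher on all 8. BGN, COL2A1, COL5A1 and LAMA4, which like the DCN probe were not called for the age average, were lower on all 8 too. This makes 11 of the 44 representative probes, where 13.9% of all probes tested were lower and 11.4% higher on all 8. COL1A1 was lower on 7, COL29A1 on 6, and COL5A3 was higher on 7. The within-slide difference of COL8A2 ran from -1.46 to -0.85, that of COL1A2 from -1.20 to -0.34 and that of COL17A1 from 0.42 to 2.01.

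By breed, COL18A1, COL17A1, LUM and COL5A1 were the genes whose representative probe passed. At day 90, 3 of 114 member probes differed between MS and LW (COL18A1 higher and 2 LUM probes lower), against 3.59% of all probes (1.32% higher and 2.27% lower). At day 110, 2 differed (both COL17A1, higher in MS, of which 1 is the dim probe, so that 1 was left with probes well above background on all 63 arrays), against 5.01% of all probes (1.84% higher and 3.17% lower). Sow breed passed for 3 (COL18A1 higher with MS sows, COL5A1 and 1 COL1A2 probe lower), against 15.9% of all probes (7.07% higher and 8.84% lower). Sire breed passed for 9 (7.89%), against 6.97% of all probes (3.1% higher and 3.87% lower). The last were COL18A1 and 2 COL14A1 probes, higher with MS sires, and 4 LUM and 2 DCN probes, lower with MS sires. The counts by sow and sire depended on single fetuses and on the weighting. On leaving out 1 fetus the sow count lay between 2 and 8 (8 without fetus 627) and the sire count between 4 and 12 (4 without fetus 688, 12 without fetus 500). The shares of all probes in these leave-one-out fits are not given here, so the movement is not read as one of the matrix genes. With array weights 46 member probes passed by sow and 17 by sire, where 13252 and 6302 of all 40515 probes did. MS against LW then gave 9 member probes at day 90 and 17 at day 110. The shares of all probes for these 2 comparisons with array weights are not given here.

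COL5A1 was lower with MS sows, with a difference of -0.56 ± 0.203 (adjusted p = 0.0479). With LW sows its median was 0.51 in LW and 0.86 in MSLW at day 90, and 0.27 and 0.07 at day 110. With MS sows it was 0.03 in MS and 0.07 in LWMS at day 90, and -0.50 and -0.31 at day 110. The difference was negative on 7 of 8 slides, but the call was lost in 38 of 63 leave-one-out fits. It was also lost after quantile normalization (-0.56, adjusted p = 0.0707), after median centring (-0.45, adjusted p = 0.118) and with no filter (-0.56, adjusted p = 0.0672). The COL1A2 probe gave -0.42 ± 0.128 by sow (adjusted p = 0.0177), while the brightest COL1A2 probe gave -0.09.

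Among the proteoglycans, LUM and DCN had probes that passed by breed, and for LUM the brightest probe was among them. Its brightest probe ran from 1.31 to 2.26 in LW at day 90 (median 1.92), from 0.81 to 1.33 in MS (median 1.15), from 1.41 to 1.85 in LWMS (median 1.68) and from 0.90 to 1.96 in MSLW (median 1.46). At day 110 the medians were 1.71, 1.53, 1.61 and 1.19. At day 90 it was lower in MS than in LW, with a difference of -0.75 ± 0.19 (adjusted p = 0.00692), and at day 110 the difference was -0.04. It was lower with MS sires, with a difference of -0.36 ± 0.092 (adjusted p = 0.00813) that was negative on 6 of 8 slides, and sow breed gave -0.04. The sire difference was negative for 10 of 11 probes, from -0.49 to 0.00, and 4 passed. The call at day 90 was lost in 11 of 63 leave-one-out fits, each leaving out an LW or MS fetus, and also after median centring (-0.78, adjusted p = 0.0454) and with no filter (-0.75, adjusted p = 0.0117).

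LUM probes that differ at a single base also differed in their breed values. The probe with the largest sire difference and another probe overlap with an offset of 1 base and differ at 1 position. A stretch of 29 bases of each is shown because this position is where they differ, in capitals, and it is given 5′ to 3′ with positions counted from 1 at its 5′ end.
A_72_P293589: tttatggttatggtGatttgtgagtccgt
A_72_P455882: tttatggttatggtTatttgtgagtccgt
The change from the second to the first is T15G. The G probe gave -1.04 ± 0.203 between MS and LW at day 90 (adjusted p = 0.000274) and -0.49 ± 0.0986 by sire (adjusted p = 0.000394). The T probe gave -0.64 ± 0.21 (adjusted p = 0.052) and -0.29 ± 0.102 (adjusted p = 0.0679).

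The level of the G probe minus that of the T probe, taken within each fetus, separated the breeds. It ran from 0.14 to 0.30 in 18 LW fetuses (median 0.23) and from -0.35 to -0.02 in 13 MS fetuses (median -0.16). In 18 LWMS fetuses it ran from -0.11 to 0.14 (median 0.04) and in 14 MSLW fetuses from -0.13 to 0.14 (median 0.01). LW and MS did not overlap, and both crosses had medians between those of the purebreds. The median was 0.05 at day 90 and 0.03 at day 110. Another probe with the same bases as the T probe serves as a control, and the T probe minus that probe had medians of 0.01 in LW, 0.00 in MS, -0.05 in LWMS and -0.03 in MSLW. This pair was chosen after its values were seen, so no test is given. Over the whole array, LW and MS did not overlap in this within-fetus difference for 5 of 67 probe pairs that are offset by 1 base and differ at 1 (7.46%), of which 2 are LUM pairs, and for 0 of 118 pairs that are offset by 1 base and do not differ. What this base and the amount of LUM RNA each add to the breed difference of the G probe was not tested.

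**Figure D4:**
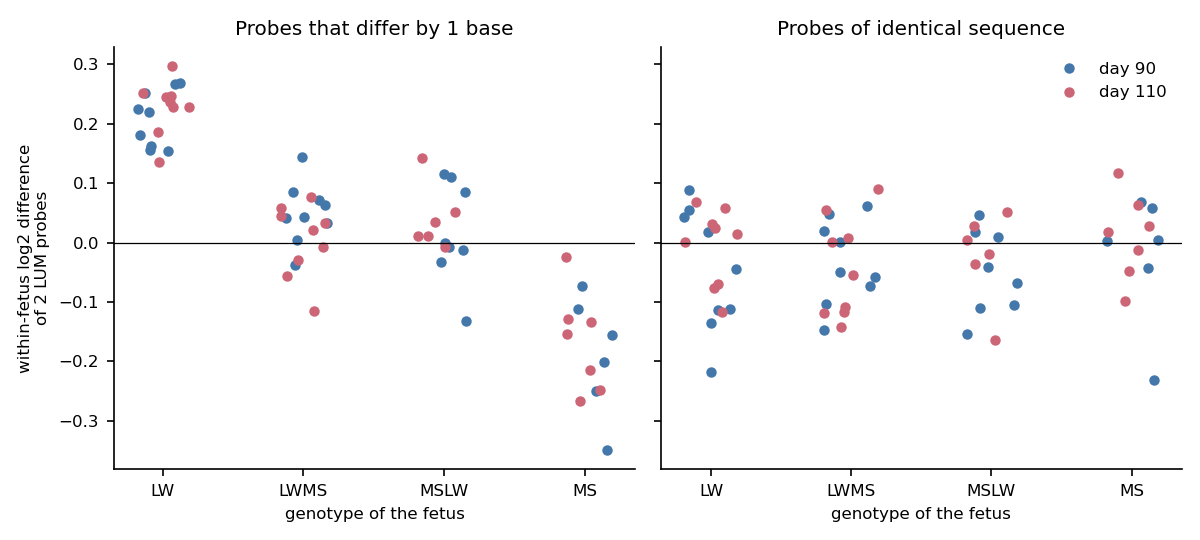
Difference in level between LUM probes within each fetus (log2, vertical axis) by genotype, for the probes that differ by 1 base and for the probes of identical sequence. For the first pair all LW fetuses lie at 0.14 or above and all MS fetuses at -0.02 or below, and for the identical pair every median lies between -0.05 and 0.01.

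Only some probes of DCN and COL14A1 passed for sire breed. For DCN, 2 probes were lower with MS sires (-0.23 and -0.22, adjusted p = 0.0397 and 0.0398) and all 6 lay between -0.23 and -0.12. For COL14A1, 2 probes near the start of the annotated sequence, at bases 456 and 457, were higher with MS sires by 0.44 and 0.42 (adjusted p = 0.0426 and 0.0407), and 1 at base 571 gave 0.46 (adjusted p = 0.0574). The other 9 probes lay between -0.03 and 0.16. The same 12 probes all gave a negative difference with age, with no difference in direction between probes.

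**Figure D5:**
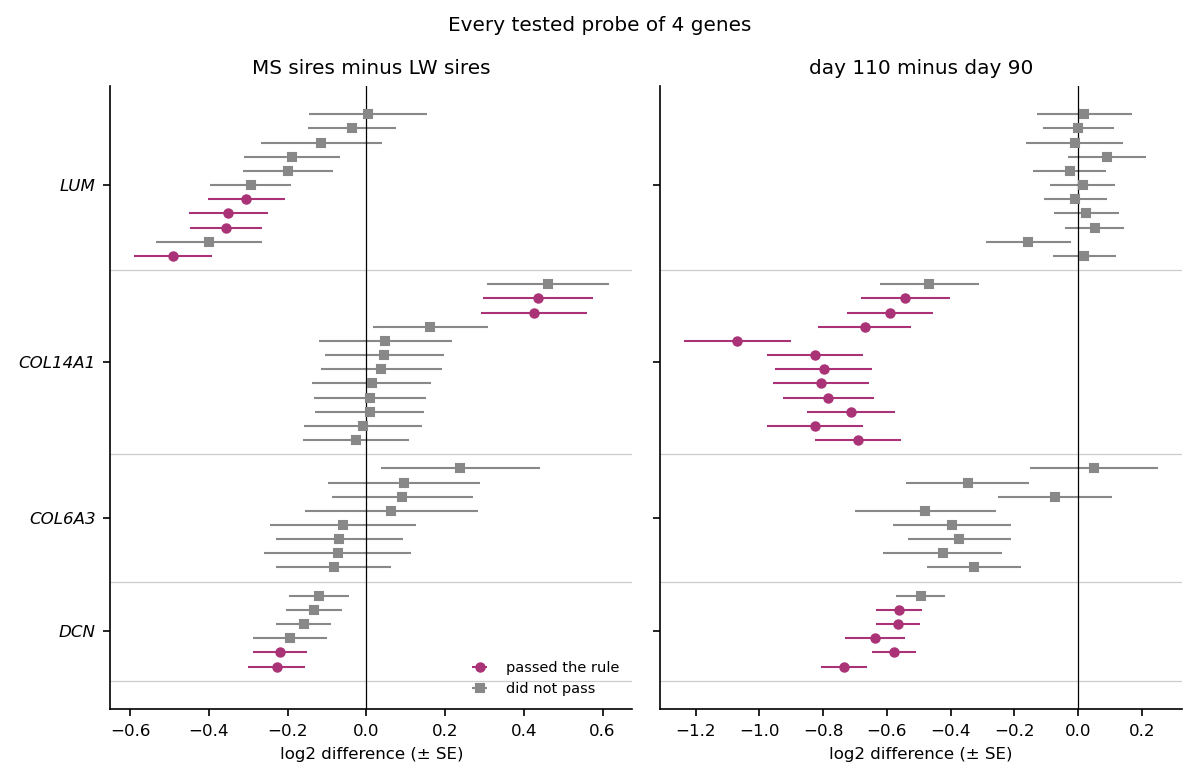
Difference by sire breed and by age (log2, with standard errors) for every tested probe of DCN, COL6A3, COL14A1 and LUM. Of the 12 COL14A1 probes 3 stand at 0.42 to 0.46 for the sire and the others at -0.03 to 0.16, while all 12 lie between -1.07 and -0.47 for age.

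Probes of identical sequence give the error between spots of the same array. The error of RNA preparation, labelling and hybridisation is shared by both probes and does not appear in their difference. The pair for LUM differed with an SD of 0.0799 over the 63 fetuses, that for COL6A3 with 0.0673, that for COL14A1 with 0.219 and that for COL6A2, of mean level -3.37, with 0.35. Their differences with age were 0.01 and -0.01, -0.40 and -0.42, -0.67 and -0.69, and -0.31 and -0.44.

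Fetuses of a group also differed from each other in many matrix genes at a time. After subtraction of the group means, COL1A1 varied with COL4A1 (r = 0.88, rho = 0.86), COL1A2 (r = 0.80, rho = 0.81), FN1 (r = 0.75, rho = 0.69), COL3A1 (r = 0.68, rho = 0.65) and LUM (r = 0.62, rho = 0.59) over 63 fetuses, with a permutation p of 1e-05 for each, the smallest that 100000 permutations give (1.6e-05 adjusted over 8 relations). For DCN the relation was positive as well (r = 0.27, permutation p = 0.0294, adjusted 0.0392; rho = 0.25, p = 0.0452, adjusted 0.0603). For COL18A1 r was 0.23 (rho = 0.17; permutation p = 0.07 and 0.192, adjusted 0.08 and 0.219), and for COL17A1 it was -0.09 (rho = -0.09; permutation p = 0.485 and 0.467, the same after adjustment). Without the 2 fetuses farthest from the median of COL1A1, r was 0.89, 0.83, 0.74, 0.73 and 0.61 for the first 5, and 0.34, 0.18 and -0.16 for the rest. With slide means removed it was 0.90, 0.82, 0.76, 0.72 and 0.63, and 0.27, 0.23 and -0.10. Over 37739 probes of the array, r with COL1A1 had a median of -0.06 and lay between -0.75 and 0.72 for the central 90% of them. Of the 8 relations, those with COL4A1, COL1A2 and FN1 lay above that range and the others, with COL3A1 and LUM among them, lay inside it.

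The same fetuses recurred at the ends of the ranges. Fetus 632 (MS, day 110) had the highest level of its group in 31 of the 44 genes, where it was highest for 32.8% of all probes. Fetuses 484 (LW, day 90) and 407 (MS, day 110) had the lowest level in 33 genes each, against 22.3% and 19.5% of all probes. Fetus 498 (MSLW, day 90) was lowest in 30 genes, 476 (MSLW, day 110) in 29 and 411 (LWMS, day 110) in 26, against 14.5%, 19.7% and 14.2% of all probes. A summed level adds the unlogged levels of a set of markers and then takes log2, so the brightest markers weigh most. Among the mesenchyme and fibroblast markers that is VIM, with a mean level of 4.80 against 2.38 for PDGFRB, the next. The summed level of 7 mesenchyme and fibroblast markers was 6.004 in fetus 632 and 4.73 in fetus 407, where the median of their group was 5.26. These were the highest and the lowest of that group, and fetus 632 also had its highest epithelial sum (8.26, against 8.10 in fetus 407). Fetuses 484 (5.15) and 411 (4.73) were the lowest of their groups in the mesenchyme sum too. Fetus 498 (5.13) and fetus 476 (5.01) were not, the lowest being fetus 450 (4.86) and fetus 851 (4.94), but both had the highest epithelial sum of their groups (7.87 and 8.17). That of fetus 484 was 7.80 and that of fetus 411 7.87, neither being the highest or lowest of its group. In the summed smooth muscle markers, fetuses 407 (8.99) and 411 (8.60) were the lowest of their groups. Fetuses 632 (9.54), 484 (9.30), 498 (9.31) and 476 (9.17) were neither the highest nor the lowest. The part of these markers in the levels of the matrix genes was not tested.

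Genes that process, surround or bind the matrix were counted in the same way for the age average, where 7.62% of all probes fell and 6.12% rose. Of 16 genes that assemble and modify collagen, PCOLCE2 rose (0.84) and CRTAP and PCOLCE fell (-0.60 and -0.56), with a median of 0.03. CRTAP belongs to the complex that hydroxylates collagen prolines, and PCOLCE enhances removal of the procollagen end. Of 19 other matrix proteins 7 fell and none rose, with a median of -0.30. The falls of MFAP2, a microfibril protein (-1.33), ASPN, a small proteoglycan (-1.15), and TGFBI, an adhesion protein (-0.97), were the largest. Of 17 genes of matrix turnover, the proteases MMP13 and MMP9 rose (0.74 and 0.64), with a median of -0.11. The MMP13 probe was dim, being well above background on 35 of 63 arrays, and it passed the filter only through MS and LWMS at day 110, so that its rise is given as a value and supports nothing. Of 16 matrix receptors, the collagen receptor DDR1 (1.89) and the epithelial integrin chain ITGB6 (0.93) rose and the syndecan SDC2 fell (-0.86), with a median of 0.11.

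Some markers of the cell types in the jejunum passed for age, and their part in the results of the matrix genes was not tested. As 13.7% of all probes passed, 1 call in a list of 7 to 9 markers is near the background. In each sum the brightest markers weigh most, such as VIM for mesenchyme and CLDN5 (mean level 3.97) for endothelium. Of 7 mesenchyme and fibroblast markers, S100A4 rose (0.61) and THY1 fell (-0.68), and their summed level went from 4.86 to 5.85 (median 5.41) at day 90 to between 4.73 and 6.004 (median 5.15) at day 110. Of 9 smooth muscle markers ACTA2 fell (-0.55), and the sum went from 9.005 to 9.83 (median 9.32) to between 8.60 and 9.74 (median 9.08). Of 8 endothelial markers CLDN5 fell (-0.52), and the sum went from 3.91 to 5.57 (median 5.10) to between 4.03 and 5.41 (median 4.81). Of 7 markers of enteric neurons and glia UCHL1, ELAVL4 and STMN2 fell (-0.64, -0.63 and -0.52), and the sum went from 4.45 to 5.26 (median 4.84) to between 3.24 and 5.53 (median 4.36). None of 6 epithelial markers passed, and their sum went from 7.16 to 8.11 (median 7.59) to between 7.34 and 8.26 (median 7.90). EPCAM (0.44), CDH1 (0.44), KRT8 (0.26) and KRT19 (-0.49) had an adjusted p under 0.01 but differences smaller than the 0.5 required. None of 8 leukocyte markers passed, and their sum went from 2.07 to 3.36 (median 2.89) to between 2.47 and 3.53 (median 2.95). In all lists the ages overlapped.

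Sow breed passed for 0 of the 16 assembly genes and 2 of the 19 other matrix proteins, where 15.9% of all probes passed, and sire breed for 1 of each, where 6.97% did. P4HA1, a prolyl hydroxylase subunit, was lower with MS sires (-0.37, adjusted p = 0.000471). FBLN1, a fibulin, was lower with MS sows and MS sires (-0.33 and -0.37, adjusted p = 0.0468 and 0.0397), and EFEMP2, another fibulin, with MS sows (-0.21, adjusted p = 0.0348). No gene of the turnover and receptor lists passed by sow or sire. Of the cell type markers, read against the same shares, PDPN of fibroblasts (0.35 by sow and 0.34 by sire) and S100B of glia (0.44 and 0.32) were higher with MS parents, and KDR of endothelium (-0.52 and -0.47) was lower. By sow alone the epithelial markers CLDN7 and KRT8 were higher (0.30 and 0.21) and the neuronal UCHL1 was lower (-0.32), and by sire alone the endothelial TEK was lower (-0.28). No smooth muscle or leukocyte marker passed by sow or sire. Their part in the breed differences of the matrix genes was not tested.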

How the data were processed

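Jejunum RNA of 63 fetuses was hybridised to one-colour Agilent arrays on 8 slides. The authors deposited scanner output of Agilent Feature Extraction 10.10.1.1 (version from the submitters' processing notes), whose background-corrected spot intensity was used, and a matrix of processed log2 values, used as an alternative only. Each array had 61625 spots, of which 1319 were controls and 0 were saturated. The number of arrays limits the precision.

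From the intensity, log2 was taken and the 75th percentile of each array subtracted. Control and outlier spots were left out, which left 9 tested member probes with a missing value, and spots of a probe were averaged. A probe was tested where 75% or more of the arrays of any group had it well above background (40515 of 60305), because dim probes are near the floor. Group means were fitted with limma 3.58.1 (R 4.3.3), and p-values were two-sided with Benjamini-Hochberg adjustment over all probes tested. The fits were tested on simulated data. The methods of the study fitted sows as random effects, which was not done here.

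Gene names are those of the array and no genome coordinates are given. The members, the gene lists and the alternatives were chosen with earlier results of these data known. The genes to describe were a set of main matrix genes, the laminins and the 8 genes with the largest age differences that passed. Up to 5 genes that passed by breed, sow or sire were added. Values by group are printed for some of these genes only. Genes of other lists are named up to 3 a list by the size of the age difference. Other members and list genes are named to complete a count. Values of 1 member gene are not reported here, and it is kept in the counts over all members. The alternatives were normexp background correction (offset 50), the authors' values, quantile normalization, median centring, other filters, the slide as a block, array weights and leaving out fetuses.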

Additional observations from a re-analysis of the deposited data

Results flagged for a closer look

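In 15 of 200 gene and group combinations of 25 named genes, 1 fetus stood apart from its group by more than Dixon's critical value, where chance flags about 1 in 20. Levels are on the log2 scale of the report. Fetus 476 (MSLW, day 110) was lowest in COL4A1 (0.43, the nearest fetus at 1.73), COL4A2 (1.51, nearest 3.02), COL5A3 (-0.18, nearest 0.99) and ELN (1.26, nearest 2.63). Fetus 498 (MSLW, day 90) was lowest in COL4A1 (0.46, nearest 1.54), COL5A1 (-0.74, nearest 0.22), FN1 (2.98, nearest 3.78) and NID1 (1.94, nearest 2.65). Fetus 484 (LW, day 90) was lowest in COL18A1 (4.28, nearest 4.71) and ELN (0.62, nearest 2.48). Fetus 827 (MS, day 90) was lowest in COL4A2 (2.10, nearest 2.69) and highest in LAMB1 (6.92, nearest -2.83). Fetus 688 (MSLW, day 110) was lowest in LAMB1 (-6.40, nearest -3.02). Fetus 411 (LWMS, day 110) was lowest in COL1A2 (2.99, nearest 3.90). Fetus 402 (LWMS, day 110) was highest in LAMA5 (-2.48, nearest -4.01).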

How the results depend on the processing

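None of the 29 called comparisons of named genes changed direction under the settings run. LAMB1, which was not called, did so for age on leaving out fetuses (-0.03 with all, 0.39 without fetus 827, 0.15 without 688 and 0.57 without both). Of the 29 under up to 10 settings, 259 values kept the call and 27 lost it, 10 of them under median centring. The age calls of COL8A2, COL17A1, COL1A1, COL14A1, COL1A2, COL21A1, COL18A1, COL16A1 and COL29A1 held under every setting run and without any 1 fetus. The counts of member probes that passed moved by over 1.5 times as follows. Most are given without the share of all probes under the same setting. They show how far a count moved, not how the matrix genes compare with the array. With normexp, age in MS gave 2, MS against LW at day 110 gave 1 and sow breed 6. With the authors' processed values, age in LW and in MS gave 2 each. After quantile normalization, age in LW and sow breed gave 1 each. After median centring, which moved the median sow difference of all probes from 0.02 to 0.13, age gave 1 in LW, 0 in MS, 6 in LWMS and 7 in MSLW, and sire breed 3. Without a filter sire breed gave 4, and with probes well above background on all 63 arrays MS against LW at day 110 gave 1. With the slide as a block sow breed gave 7. With array weights age gave 52 on average, 15 in LW, 34 in MS, 28 in LWMS and 29 in MSLW, MS against LW gave 9 and 17, sow and sire breed 46 and 17, both the sow by age and the breed by age interaction 2, and the F test 70. Without fetuses 484 and 469, age in MS gave 2, MS against LW at day 90 gave 5 and sow breed 11. Without the 4 arrays that stood apart, a setting chosen after seeing the data, age in MS gave 2. Leaving out 1 fetus at a time, whether or not a count moved by that much, the age average ranged from 31 to 36, age in LW from 4 to 8, in MS from 1 to 2, in LWMS from 10 to 17 and in MSLW from 6 to 17, sow breed from 2 to 8, sire breed from 4 to 12 and the F test from 28 to 38. The causes were not tested. No paired analysis was made, because the replicate numbers are fetus numbers that no groups share. The sample labels do not name the individual sow of each fetus, by which litter mates could be paired. The slide was used as a block.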
